A study of Mus musculus with 24 samples.

Results

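Working myocardium of the embryonic mouse heart was compared between embryonic days E10.5 and E17.5. The comparison used the 12 working myocardium arrays of a series of 24, 6 at each stage, and took every array whose label gives working myocardium at 1 of these stages. All 12 samples came from NppaBAC336-Egfp mice, in which a green fluorescent protein is driven by a transgene built on the Nppa gene, so the cells are those that carry this reporter and not a whole chamber. The other 12 arrays of the series held atrioventricular (AV) canal myocardium at E10.5 and AV node myocardium at E17.5, 6 each, from Tbx3BAC-Egfp mice, and serve here as the second tissue in which the same stages were measured. For each sample, fluorescent tissue from several hearts was pooled and dissociated, 5000 cells were sorted, and their RNA went through 2 rounds of linear amplification before hybridisation to its own Illumina BeadChip. The labels call the samples biological replicates but do not say whether pools shared a litter, nor which chambers the tissue was taken from.

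Working myocardium is the contracting muscle of the atria and ventricles, as opposed to the conduction system that paces it. Between mid and late gestation its cells change their sarcomere proteins from embryonic to later isoforms, build up the calcium store of the sarcoplasmic reticulum, increase mitochondrial energy supply and divide less often. Nppa encodes atrial natriuretic peptide and marks working myocardium of the early heart, in the atria throughout gestation and in the ventricles mainly in the inner, trabeculated wall.

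Levels below are normalized log2 intensities of the brightest probe of a gene, and differences are E17.5 minus E10.5 on the log2 scale, so a difference of 1 is a 2-fold change, and ± gives the standard error (SE) of the difference with 6 arrays per stage. A level is given as its lowest and highest array with the median. Levels of different genes come from different probes and were not compared with each other. A probe or gene is said to have risen or fallen when its adjusted p in limma was under 0.05 with Benjamini-Hochberg adjustment over all 46632 probes. Where all 6 working arrays of a stage were at background, only a minimum fold is given, measured from the lowest signal that counts as above background. Where 1 to 4 of the 6 arrays of a stage were above background, the difference is set partly against background and its size is uncertain. At E10.5 this holds for Myom2, Myh8, Ccdc3, Mgp, Ptgds, Kcnj8, Cacna1g, Ier2, Eng, Msln, Dpt, Chrm2, C1qb, Ltbp2 and Fgf12. At E17.5 it holds for Atp2a1, Tagln3, Ap3b2, Prtg, Isl1, Ccna2, Hadh, Suclg1 and Wnt2.

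The 12 arrays separated by stage along the first principal component, which held 68.6% of the variance. The mean correlation (r) of an array with others of its stage, taken over probes, lay between 0.990 and 0.992 for E10.5 and between 0.980 and 0.989 for E17.5, against 0.935 to 0.957 with the opposite stage. Median raw intensity was between 112 and 132.9 on the E10.5 arrays and between 54.7 and 61.3 on the E17.5 arrays, and 33.4% to 37.1% and 29.9% to 37.3% of probes were above background. Stage and hybridisation cannot be told apart, since no slide is given for the E17.5 arrays and their raw intensities do not overlap with those of E10.5. The sample codes of the E10.5 arrays begin with 1 or 2, taken here as 2 slides of 3 working arrays each. Replicates 5 and 6 at E10.5 lay lowest in endothelial, fibroblast and leukocyte genes, and replicates 1 and 4 at E17.5 lay highest. Some results that rest on these arrays are given with and without them. Others, among them Dlk1, Notch1, Laptm5, Pecam1, Ednrb and Krt7, also lay lowest on E10.5 replicates 5 and 6 and are given with all arrays only.

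The RefSeq promoter sequences available for muscle genes described below are shown because they belong to genes whose transcripts moved in different directions, or, for Nppa, to the gene on which the reporter was built. Each is the 250 bases before the annotated start in the mouse GRCm38.p6 assembly, on the plus strand, from 5′ to 3′. Capitals mark matches on either strand to an E-box (CANNTG), a GATA motif (GATAA), a T-box half-site (TCACAC), a CArG box, a MEF2 motif or a TATA motif (TATAAA). The sequences are Nppa at chr4:148000472-148000721, Ckm at chr7:19410844-19411093, Casq2 at chr3:102086165-102086414, Myl3 at chr9:110763428-110763677 and Irx4 at chr13:73260247-73260496.
Nppa: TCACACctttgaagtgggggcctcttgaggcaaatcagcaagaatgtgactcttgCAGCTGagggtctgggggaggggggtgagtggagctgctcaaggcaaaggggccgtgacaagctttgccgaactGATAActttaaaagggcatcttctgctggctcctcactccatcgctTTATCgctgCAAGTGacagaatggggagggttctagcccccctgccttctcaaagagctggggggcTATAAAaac
Ckm: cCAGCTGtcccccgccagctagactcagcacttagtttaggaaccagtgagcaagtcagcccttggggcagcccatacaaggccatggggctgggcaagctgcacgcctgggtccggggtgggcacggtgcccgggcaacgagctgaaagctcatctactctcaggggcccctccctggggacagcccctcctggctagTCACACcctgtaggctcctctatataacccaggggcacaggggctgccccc
Casq2: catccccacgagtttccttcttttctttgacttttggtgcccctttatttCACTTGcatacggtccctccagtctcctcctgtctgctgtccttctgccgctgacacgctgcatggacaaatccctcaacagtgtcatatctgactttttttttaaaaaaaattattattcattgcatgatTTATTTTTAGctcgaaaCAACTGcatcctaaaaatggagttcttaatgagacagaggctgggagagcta
Myl3: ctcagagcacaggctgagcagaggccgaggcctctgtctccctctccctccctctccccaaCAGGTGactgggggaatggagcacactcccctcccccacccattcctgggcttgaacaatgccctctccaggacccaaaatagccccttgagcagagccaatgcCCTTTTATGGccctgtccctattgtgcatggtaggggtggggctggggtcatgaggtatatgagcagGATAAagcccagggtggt
Irx4: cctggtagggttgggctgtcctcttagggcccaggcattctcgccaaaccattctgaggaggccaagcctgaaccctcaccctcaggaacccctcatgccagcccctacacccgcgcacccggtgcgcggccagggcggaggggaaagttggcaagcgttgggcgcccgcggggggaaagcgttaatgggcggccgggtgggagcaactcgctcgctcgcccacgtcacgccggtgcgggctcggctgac
Over all 32851 promoters of this length, 66.2% held an E-box, 22.6% a GATA motif, 12.3% a T-box half-site, 12.4% a TATA motif, 2.9% a MEF2 motif and 1.5% a CArG box. The Nppa window held 2 E-boxes, 2 GATA motifs, 1 T-box half-site and 1 TATA motif. The MEF2 match was in the window of Casq2, which rose, and the CArG match in that of Myl3, which fell. The Irx4 window held no match to these letters. A match is a description of the letters and not evidence of binding.

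Of 46632 probes, 11273 (24.2%) differed between the stages, 4972 (10.7%) higher and 6301 (13.5%) lower at E17.5. At least 2-fold were 1265 of the rises (2.71% of probes) and 1164 of the falls (2.5%), and at least 4-fold were 352 and 127. Falls were more numerous in all, and rises were more numerous among changes of at least 4-fold. The 6 arrays of E17.5 all lay above those of E10.5 for 6.42% of probes and all below for 8.78%. For 17711 named genes represented by their brightest probe, 35.2% changed: 16.6% rose and 18.6% fell, which is the background against which the counts below are read. The balance between directions depended on the scaling: 44.1% of the calls were higher at E17.5 with quantile normalization, 49.3% with cyclic loess and 51.9% with median scaling. With median scaling the median difference of the 11780 probes above background on all arrays moved from -0.03 to -0.55, so a gene is said to have risen or fallen relative to the other probes. Modest rises were smaller with median scaling and modest falls larger, as for Foxm1 (0.38), Aldoc (0.53) and Acadvl (0.68), and for Pln (-1.30) and Ccnd2 (-1.46). With the authors' processed values, changes that started or ended near background were larger, among them Col2a1 (-9.13), Tnxb (7.78), Trim71 (-7.32), Irx4 (-6.33), Sln (4.26) and Chrm2 (4.66).

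**Figure D1:**
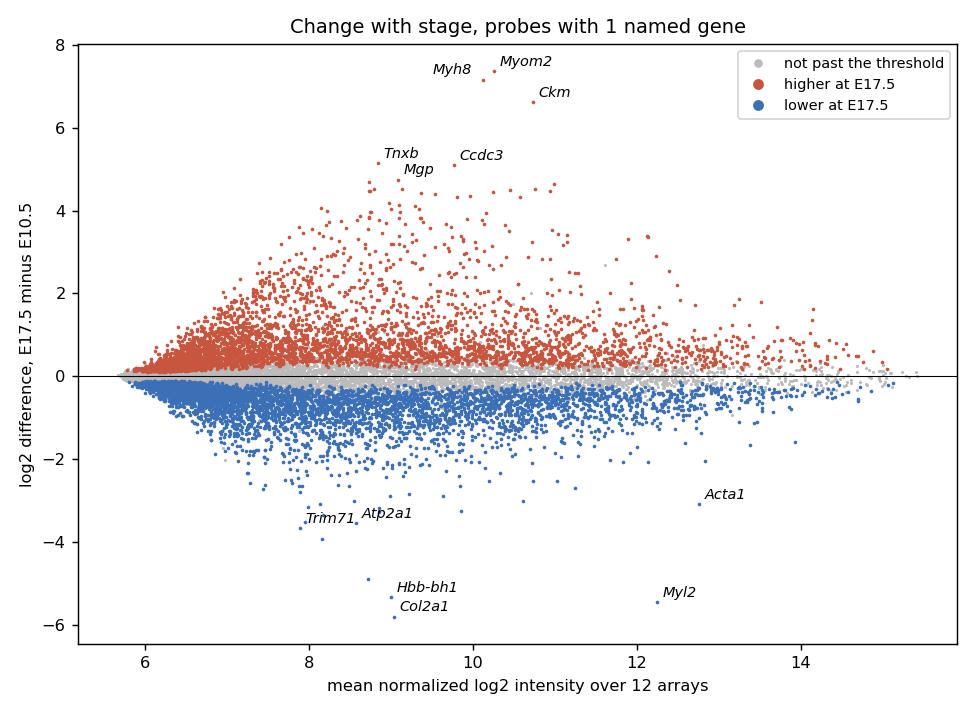
Log2 difference between E17.5 and E10.5 (vertical) against the mean normalized log2 intensity over the 12 working arrays (horizontal), for each probe with 1 named gene; red points were higher and blue points lower at E17.5 in limma, grey points did not pass the threshold. Myom2, Myh8 and Ckm rose most, and Col2a1, Myl2 and Hbb-bh1 fell most.

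Among the 25 gene lists examined, endothelial and fibroblast markers rose most often, and cell cycle genes and genes enriched in ventricular myocardium fell most often. Of the 28 measured genes given as textbook markers of maturation, 8 rose and 11 fell. Sarcomere genes moved in both directions, as did genes of calcium handling, ion transport, fatty acid use and glycolysis.

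**Figure D2:**
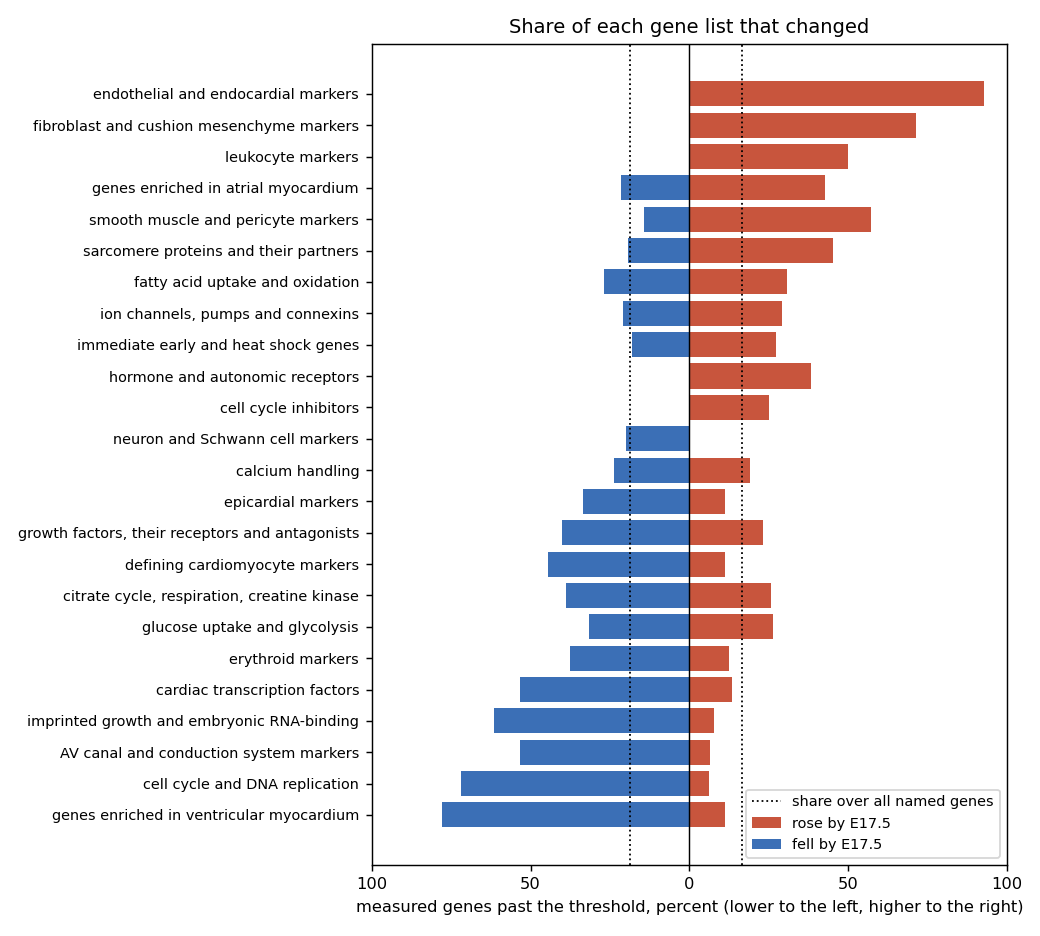
Share of the measured genes of each list that rose (right, red) or fell (left, blue) between E10.5 and E17.5 in working myocardium, in order of the list's median difference; dotted lines give the shares over all named genes, 16.6% and 18.6%. Of 14 endothelial markers 13 rose and of 32 cell cycle genes 23 fell, while with median scaling the medians of the sarcomere, atrial, fatty acid, calcium handling and immediate early lists turned negative.

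Of 31 measured sarcomere genes, 14 rose and 6 fell, with a median difference of 0.28, against 0.00165 over all named genes. With median scaling the list turned to 4 rises and 12 falls with a median of -0.12, and without E17.5 replicates 1 and 4 there were 19 rises and 6 falls. The rise of Myom2, the M-band protein myomesin 2, was the largest of any named gene. Its log2 intensity was 6.48 to 6.83 (median 6.53) at E10.5 and 13.46 to 14.2 (median 14.05) at E17.5, a difference of 7.36 ± 0.12 (adjusted p = 6.56e-13), or 165-fold. The stages were more than 6 log2 units apart at their closest, and a lack of overlap was a condition for naming the largest changes. Only 1 of 6 E10.5 arrays was above background for Myom2, so the fold depends on the background level.

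Myh8, the perinatal myosin heavy chain, lies outside the sarcomere list and also rose. It was above background on 2 of 6 arrays at E10.5, so its fold depends on the background level as well. Its log2 intensity was 6.31 to 6.98 (median 6.43) at E10.5 and 13.35 to 14.01 (median 13.78) at E17.5, a difference of 7.15 ± 0.14 (adjusted p = 3.95e-12). Closely related myosin genes may share signal with such a probe. Myh6, the alpha myosin heavy chain of the atrium and adult mouse ventricle, was at 10.8 to 11.72 (median 11.42) at E10.5 and 10.83 to 13.01 (median 12.5) at E17.5, a difference of 1.05 ± 0.32 (adjusted p = 0.0293). Its stages overlapped, with replicate 1 at E17.5 at 10.83 and the other 5 at a mean of 12.64. The Myh6 call was lost in several settings, among them median scaling (0.41, adjusted p = 0.337) and each slide of E10.5 alone.

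Troponin I showed opposite changes in its slow skeletal form, Tnni1, and its cardiac form, Tnni3. Tnni1, the form of the embryonic heart, was at 13.08 to 14.32 (median 14.04) at E10.5 and 11.89 to 12.997 (median 12.85) at E17.5, and fell by 1.09 (SE 0.26, adjusted p = 0.00629). Tnni3, the adult form, was at 13.13 to 13.52 (median 13.31) and 13.54 to 14.63 (median 14.26), a rise of 0.88 ± 0.14 (adjusted p = 0.000433). Every E17.5 array was above every E10.5 array for Tnni3 and below every one for Tnni1. Both calls had limits: against the E10.5 arrays of slide 2 alone, Tnni1 fell by 0.66 with an adjusted p of 0.141, and with median scaling Tnni3 differed by 0.18 with an adjusted p of 0.216. With all 24 arrays fitted together the adjusted p of Tnni3 was 0.0858.

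Other sarcomere genes that rose were Mybphl, a relative of myosin-binding protein C, by 1.79 ± 0.088, and Myoz2, the Z-disc protein calsarcin 1, by 1.73 ± 0.067. For both, every E17.5 array lay above every E10.5 array. Titin (Ttn) rose by 0.89 ± 0.19 at its brightest probe (adjusted p = 0.00364), but another of its 13 probes fell by 0.55 (adjusted p = 0.00936), and with median scaling the brightest probe differed by 0.17 (adjusted p = 0.598). No single direction can be given for this gene.

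The skeletal alpha-actin gene Acta1, which the embryonic heart expresses beside cardiac actin, fell by 3.09 (SE 0.17, adjusted p = 4.61e-08), from a median log2 intensity of 14.35 (14.14 to 14.45) at E10.5 to 11.39 (10.47 to 11.59) at E17.5. The cardiac form, Actc1, fell by only 0.38 (SE 0.06), from a median log2 intensity of 14.74 (14.68 to 14.97) at E10.5 to 14.34 (14.3 to 14.57) at E17.5 (adjusted p = 0.000376). This smaller call was lost with all 24 arrays fitted together (adjusted p = 0.204) and with the authors' processed values (0.0666).

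**Figure D3:**
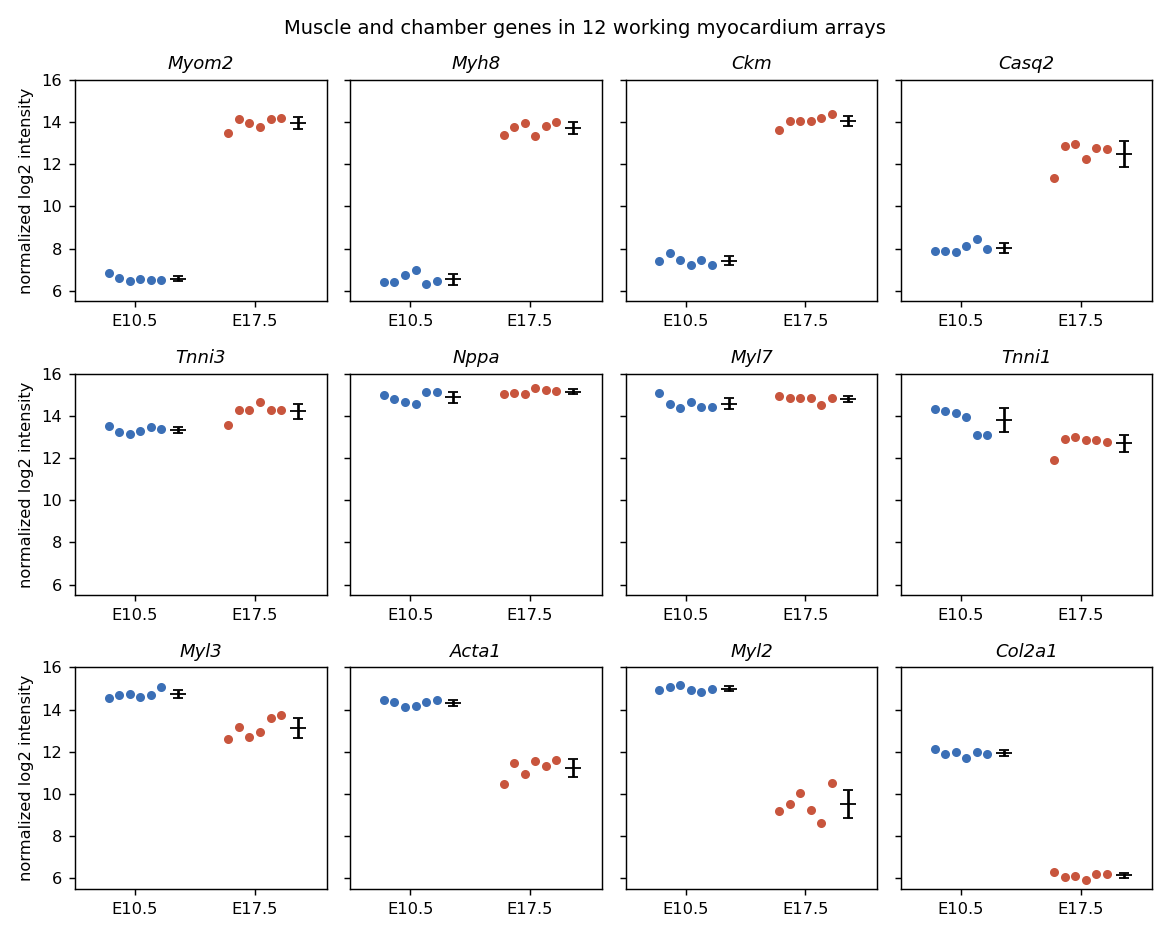
Normalized log2 intensity of 12 muscle and chamber genes in each of the 6 arrays at E10.5 (blue) and E17.5 (red), in replicate order within a stage; black bars are the mean and SD of 6 arrays. Myom2, Myh8, Ckm and Casq2 were higher on every E17.5 array, Myl3, Acta1, Myl2 and Col2a1 lower on every one, while Nppa and Myl7 overlapped, and with median scaling Nppa and Myl7 had negative differences. A lack of overlap was a condition for naming Myom2, Myh8, Ckm, Acta1, Myl2 and Col2a1 among the largest changes.

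Genes enriched in ventricular myocardium were lower at E17.5. Of 9 measured, 7 fell and 1 rose, with a median difference of -1.58. The counts stayed at 7 and 1 without E10.5 replicates 5 and 6 and without E17.5 replicates 1 and 4. The largest fall was that of Myl2, the regulatory myosin light chain of the ventricle. Its log2 intensity was 14.83 to 15.15 (median 14.94) at E10.5 and 8.64 to 10.52 (median 9.39) at E17.5, and fell by 5.45 or 43.7-fold (SE 0.25, adjusted p = 8.8e-09). The E17.5 arrays were spread over almost 2 log2 units, and the highest lay more than 4 units below the lowest E10.5 array.

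Myl3, the essential light chain of the ventricle, was at 14.54 to 15.06 (median 14.71) and then 12.63 to 13.76 (median 13.06), and fell by 1.59 (SE 0.18, adjusted p = 2.54e-05). Irx4, a transcription factor of ventricular identity, was above background on all E10.5 arrays at 8.28 to 8.74 (median 8.6) and on none at E17.5, so it was at least 3.79-fold lower (adjusted p = 7.74e-10). Lbh, a transcription cofactor of the early ventricle, fell by 1.87 (SE 0.26, adjusted p = 0.000132). Gja1, which encodes connexin 43, the main gap junction protein of ventricular muscle and also present in atrial muscle, went the other way and rose from a median log2 intensity of 13.65 (13.15 to 13.79) at E10.5 to 14.68 (14.4 to 14.77) at E17.5, by 1.05 ± 0.1 (adjusted p = 5.56e-06). The rise of Gja1 was 0.35 with median scaling and still passed the threshold.

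Genes enriched in atrial myocardium were mixed. Of 14 measured, 6 rose and 3 fell with a median difference of 0.40, but 1 rose and 6 fell with median scaling (median -0.05). Without E10.5 replicates 5 and 6, 3 rose and 2 fell. Sln, the atrial inhibitor sarcolipin, was at background on all E10.5 arrays and above it on all E17.5 arrays, at 7.28 to 7.61 (median 7.41), at least 1.73-fold higher (adjusted p = 7.25e-09). Dkk3, a secreted Wnt regulator, rose by 0.81 ± 0.054 (adjusted p = 2.9e-07), a call lost with median scaling (0.10, adjusted p = 0.531). Kcna5, an atrial potassium channel, was above background at E10.5 and not at E17.5, at least 1.91-fold lower (adjusted p = 1.44e-08). Nr2f1, a nuclear receptor of atrial identity, fell by 0.77 (SE 0.13, adjusted p = 0.000464).

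Nppa itself, the gene behind the reporter, was at 14.55 to 15.14 (median 14.88) at E10.5 and 15.01 to 15.32 (median 15.12) at E17.5 at its brightest probe, a difference of 0.26 ± 0.1 (adjusted p = 0.0908) that did not pass the threshold. It was 0.39 without E10.5 replicates 5 and 6 (adjusted p = 0.0096) and -0.37 with median scaling (adjusted p = 0.00637), so both directions passed the threshold in some setting. A second, dimmer Nppa probe rose by 1.70 ± 0.28 (adjusted p = 0.00045). Cells were sorted by the Nppa reporter at both stages, so the Nppa level cannot be told apart from the sort. Nppb, the related B-type natriuretic peptide, was at 13.37 to 13.92 (median 13.76) and 13.8 to 14.2 (median 14.1), a rise of 0.38 ± 0.1 (adjusted p = 0.0156) that turned to -0.33 with median scaling and did not pass with all 24 arrays fitted together (adjusted p = 0.35). Myl7, the atrial regulatory light chain, differed by 0.24 ± 0.11 (adjusted p = 0.173) and by -0.46 with median scaling. In RNA from pooled sorted cells, fewer cells of a type and less RNA per cell cannot be told apart. This touches the ventricular and atrial genes first, since the share of cells from each chamber is not given for either stage.

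Of 21 measured calcium handling genes, 4 rose and 5 fell, with a median of 0.04 that turned to -0.33 with median scaling. Without E17.5 replicates 1 and 4, 9 rose and 4 fell. With any probe of a gene counted, 5 had a rise and 8 had a fall. Casq2, cardiac calsequestrin, binds calcium inside the sarcoplasmic reticulum. It rose from a median log2 intensity of 7.93 (7.82 to 8.46) at E10.5 to 12.73 (11.34 to 12.94) at E17.5, a difference of 4.45 ± 0.24 or 21.9-fold (adjusted p = 3.94e-08). All 6 E17.5 arrays lay above the E10.5 arrays, with replicate 1 lowest at 11.34. The skeletal form, Casq1, moved the opposite way, from a median log2 intensity of 11.05 (10.73 to 11.53) at E10.5 to 9.82 (8.79 to 10.54) at E17.5, and fell by 1.3 (SE 0.24, adjusted p = 0.00136).

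The calcium pumps of the reticulum were measured in a skeletal and a cardiac form. Atp2a1, the fast skeletal pump SERCA1, fell from a median log2 intensity of 10.36 (9.82 to 10.67) at E10.5 to 6.91 (6.32 to 7.17) at E17.5, a difference of -3.55 ± 0.17 (adjusted p = 1.43e-08). Atp2a2, the cardiac pump SERCA2, was at 15.2 to 15.32 (median 15.29) and 15.03 to 15.49 (median 15.32), a difference of 0.012 ± 0.068 (adjusted p = 0.935) that was -0.56 with median scaling. Dimmer Atp2a2 probes, above background on all arrays, differed by -0.07 and -0.13 and did not pass (adjusted p = 0.558 and 0.73). Pln, the pump's inhibitor phospholamban, fell by 0.63 (SE 0.07, adjusted p = 1.87e-05), and the release channel gene Ryr2 fell by 0.45 (SE 0.12, adjusted p = 0.0133). Both of these calls were lost with all 24 arrays fitted together (adjusted p = 0.174 and 0.373), and that of Ryr2 also against each slide of E10.5 alone.

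Calcium channels of the cell membrane also changed. Cacna1h, a T-type channel of the embryonic heart, fell by 1.5 (SE 0.14, adjusted p = 4.93e-06), and Cacna1c, the pore of the L-type channel, fell by 1.3 (SE 0.2, adjusted p = 0.000332). Cacna2d1, an accessory subunit of the L-type channel, rose by 1.69 ± 0.25 at its brightest probe (adjusted p = 0.000227), while a second probe above background on all arrays differed by 0.06 (adjusted p = 0.846). Cacna1g, the second T-type channel, rose by 0.86 ± 0.14 (adjusted p = 0.000409).

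Of 24 measured ion channel, pump and connexin genes, 7 rose and 5 fell, with a median of 0.11, and 10 rose and 4 fell without E17.5 replicates 1 and 4. The largest rises were in subunits of potassium channels that close when ATP is high. Kcnj8, a pore subunit also expressed by pericytes, was at 6.47 to 7.24 (median 6.92) at E10.5 and 10.91 to 11.34 (median 11.02) at E17.5, a difference of 4.19 ± 0.14 (adjusted p = 7.98e-10). Abcc8, the sulfonylurea receptor SUR1, which pairs with such pores in mouse atrial cells, was at 7.31 to 7.82 (median 7.54) and 9.64 to 10.63 (median 10.48), a difference of 2.81 ± 0.16 (adjusted p = 5.6e-08). The stages were at least 1.8 log2 units apart for both. The pericyte markers Rgs5 and Pdgfrb rose as well, by 1.12 ± 0.26 and 1.37 ± 0.27, the first lost with median scaling (adjusted p = 0.081), and their part in the change of Kcnj8 was not tested.

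Kcnq1 and Kcne1, which form the slow delayed rectifier channel together, changed in opposite directions. The pore gene Kcnq1 rose from a median log2 intensity of 8.49 (8.11 to 8.7) at E10.5 to 10.002 (9.5 to 10.21) at E17.5, by 1.53 ± 0.13 (adjusted p = 1.5e-06). The accessory gene Kcne1 fell from a median log2 intensity of 10.14 (9.94 to 10.43) at E10.5 to 8.03 (7.64 to 8.34) at E17.5, a difference of -2.1 ± 0.12 (adjusted p = 5.79e-08). Gjc1, connexin 45 of the early heart and the nodes, fell by 1.22 (SE 0.1, adjusted p = 1.54e-06), opposite to connexin 43 above. Gja5, connexin 40 of atrial and trabecular muscle, differed by 0.68 ± 0.24 and did not pass (adjusted p = 0.0576), but passed in several settings, among them without E17.5 replicates 1 and 4 (0.90, adjusted p = 0.00485). Hcn4, the pacemaker channel gene, was at background on all 12 arrays.

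Genes of energy supply showed no common direction. Of 31 measured genes of the citrate cycle, respiratory chain and creatine kinase, 8 rose and 12 fell (median -0.09), and with median scaling 3 rose and 22 fell (median -0.62). The largest rises were in muscle forms. Ckm, the muscle creatine kinase that regenerates ATP at the sarcomere, rose from a median log2 intensity of 7.44 (7.2 to 7.81) at E10.5 to 14.05 (13.62 to 14.36) at E17.5, by 6.62 ± 0.12 or 98.4-fold (adjusted p = 2.44e-12). Its mitochondrial partner Ckmt2 rose from a median log2 intensity of 7.53 (7.3 to 7.89) at E10.5 to 9.89 (8.8 to 10.21) at E17.5, by 2.12 ± 0.22 (adjusted p = 9.26e-06). Cox8b, a cytochrome oxidase subunit of heart and muscle, rose from a median log2 intensity of 8.35 (7.73 to 8.48) at E10.5 to 12.17 (11.56 to 12.53) at E17.5, by 3.94 ± 0.16 (adjusted p = 5.08e-09).

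The muscle forms Cox7a1 and Cox6a2 of the same oxidase rose by 0.87 and 0.79, while the widely expressed subunit Cox5a fell by 0.83. These subunits were named after their values were seen, and their single values were not examined with median scaling or other settings. Among the genes that fell were Suclg1 of the citrate cycle, a difference of -2.09 ± 0.12 (adjusted p = 5.54e-08), and Atp5a1 of the ATP synthase, a difference of -1.13 ± 0.18 (adjusted p = 0.00041). A second Atp5a1 probe, above background on all arrays, differed by 0.20 (adjusted p = 0.408), so the fall rests on 1 of 2 probes. Myoglobin (Mb) fell by 0.56 (SE 0.14, adjusted p = 0.00977), a call lost against slide 1 of E10.5 (adjusted p = 0.113) and with the authors' processed values (0.0503).

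Of 26 measured genes of fatty acid uptake and oxidation, 8 rose and 7 fell with a median of 0.19, 11 and 6 without E17.5 replicates 1 and 4, and 2 and 12 with median scaling (median -0.31). With any probe of a gene counted, 9 had a rise and 9 had a fall. Acadm was in both, with 0.74 at its brightest probe and -1.13 at another (adjusted p = 0.0231 and 0.00268). Acadvl, which starts the oxidation of long chains, rose from a median log2 intensity of 11.31 (11.18 to 11.51) at E10.5 to 12.76 (12.06 to 12.86) at E17.5, by 1.32 ± 0.12 (adjusted p = 3.08e-06). Ppargc1a, a coactivator of mitochondrial genes, rose by 1.17 ± 0.19 (adjusted p = 0.000531), a call lost with median scaling (0.52, adjusted p = 0.0947). Fabp3, the fatty acid-binding protein of heart muscle, rose from a median log2 intensity of 14.33 (14.21 to 14.39) at E10.5 to 14.85 (14.58 to 14.996) at E17.5, by 0.5 ± 0.063 (adjusted p = 4.89e-05), but differed by -0.22 with median scaling and had an adjusted p of 0.36 with all 24 arrays fitted together. Cd36, a fatty acid transporter, was at background on all 12 arrays. Hadh, a later step of the same pathway, fell by 1.5 (SE 0.063, adjusted p = 5.09e-09), to a level above background on 1 of 6 arrays. Cpt1b, the muscle gate for fatty acids into mitochondria, differed by 0.24 ± 0.13 (adjusted p = 0.216), by 0.37 without E17.5 replicate 1 (adjusted p = 0.000994) and by -0.39 with median scaling (adjusted p = 0.0279), so both directions passed the threshold in some setting.

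Of 19 measured glucose uptake and glycolysis genes, 5 rose and 6 fell (median -0.14), and with median scaling 1 rose and 12 fell. Slc2a1, the glucose transporter GLUT1 of embryonic cells, fell from a median log2 intensity of 13.23 (12.92 to 13.31) at E10.5 to 11.13 (10.96 to 11.23) at E17.5, a difference of -2.07 ± 0.074 (adjusted p = 1.39e-09), with no overlap. Slc2a4, the insulin-dependent transporter GLUT4, differed by 0.38 ± 0.18 (adjusted p = 0.172), by 0.69 without E17.5 replicates 1 and 4 (adjusted p = 0.00023) and by -0.013 with median scaling. Aldoc, an aldolase form best known from brain, rose by 1.14 ± 0.14 (adjusted p = 4.98e-05). Of the phosphofructokinases, the platelet form Pfkp fell by 1.25 (SE 0.28, adjusted p = 0.00451), lost against slide 1 of E10.5 (adjusted p = 0.0999) and not seen at a second probe (0.13, adjusted p = 0.63). The muscle form Pfkm rose by 0.83 ± 0.11 (adjusted p = 0.000101), lost with median scaling (0.16, adjusted p = 0.216).

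Most cell cycle and DNA replication genes fell. Of 32 measured, 23 fell and 2 rose, with a median of -0.74, and 22 and 23 fell without E10.5 replicates 5 and 6 and without E17.5 replicates 1 and 4. Pcna, the sliding clamp of DNA replication, was at 8.91 to 9.56 (median 9.19) at E10.5 and 6.89 to 7.5 (median 7.17) at E17.5, and fell by 2.03 (SE 0.13, adjusted p = 1.84e-07). Ccna2, cyclin A2, was at 8.03 to 8.69 (median 8.41) and 6.36 to 6.93 (median 6.65), and fell by 1.76 (SE 0.13, adjusted p = 5.12e-07). Rrm2, which makes the building blocks of DNA, was at 11.57 to 11.88 (median 11.73) and 9.58 to 10.35 (median 9.99), and fell by 1.7 (SE 0.12, adjusted p = 3.86e-07). For these 3 genes the stages did not overlap.

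Of 5 probes for cyclin D1 (Ccnd1), all above background on every array, 4 fell past the threshold, with differences of -1.02, -2.07, -2.05 and -1.12 (adjusted p = 0.00441, 5.66e-07, 1.45e-08 and 3.58e-06). The brightest differed by -0.58 ± 0.2 (adjusted p = 0.0556), and by -0.77 without E17.5 replicate 1 (adjusted p = 0.000506). Cyclin D2 (Ccnd2) fell by 0.77 (SE 0.12) at its brightest probe (adjusted p = 0.000238), while 2 other probes above background on every array differed by -0.57 and -0.31 and did not pass (adjusted p = 0.381 and 0.299). Foxm1, a transcription factor of mitotic genes, rose by 0.89 ± 0.14 (adjusted p = 0.000369). E2f1, which drives entry into DNA synthesis, rose by 0.2 ± 0.067 (adjusted p = 0.0472), a call lost in many settings and at -0.42 with median scaling. Of 12 cell cycle inhibitors, 3 rose and none fell. Cdkn2c, an inhibitor of cyclin D kinases, rose from a median log2 intensity of 7.15 (7.1 to 7.36) at E10.5 to 8.32 (7.81 to 8.55) at E17.5, by 1.07 ± 0.11 (adjusted p = 7.3e-06). Cdkn1a, p21, rose by 0.59 ± 0.091 (adjusted p = 0.000264) but differed by -0.05 with median scaling.

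Of 30 measured cardiac transcription factors, 16 fell and 4 rose, with a median of -0.37. Beside Irx4, the largest falls were in factors of the conduction system and of progenitor cells. Tbx3, a repressor that keeps AV and nodal cells from the chamber programme, fell from a median log2 intensity of 9.57 (9.07 to 9.99) at E10.5 to 7.02 (6.61 to 8.25) at E17.5, a difference of -2.38 ± 0.24 (adjusted p = 8.27e-06). Isl1, a factor of cardiac progenitors, fell from a median log2 intensity of 8.17 (7.73 to 8.87) at E10.5 to 6.27 (6.09 to 7.32) at E17.5, a difference of -1.82 ± 0.22 (adjusted p = 4.68e-05). For both genes no E17.5 array reached the lowest E10.5 array.

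Nkx2-5, a core cardiac factor, fell by 0.74 (SE 0.17, adjusted p = 0.00467), lost against slide 1 of E10.5 (adjusted p = 0.066). Tbx2, a chamber repressor related to Tbx3, fell by 0.36 (SE 0.12, adjusted p = 0.0383), a call that was lost in many settings, with adjusted p up to 0.352. The genes that rose included Mef2a, a muscle activator, by 1.18 ± 0.17 (adjusted p = 0.000152), and Tbx20 by 0.98 ± 0.26 (adjusted p = 0.0124). Tbx5, a factor of the atria and left ventricle, rose by 0.68 ± 0.18 (adjusted p = 0.0127). The calls of Tbx20 and Tbx5 were lost with median scaling (0.38 and 0.00217, adjusted p = 0.35 and 0.995) and against slide 2 of E10.5 (adjusted p = 0.21 and 0.07). That of Tbx5 was also lost against slide 1 (adjusted p = 0.145) and without E10.5 replicates 5 and 6 (0.0633). Dimmer probes of Tbx20 and Tbx5 above background on all arrays did not pass. Without E10.5 replicates 5 and 6, 15 factors fell and 2 rose.

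Of 15 measured AV canal and conduction markers, 8 fell and 1 rose, with a median of -0.49, and the counts were the same without E10.5 replicates 5 and 6. Tbx3, Kcne1, Isl1, Gjc1 and Tbx2, given above, are among them, and Cacna1g was the 1 that rose. The sum of the linear signals of this list was 5435 to 6926 on the E10.5 arrays and 2429 to 3283 on the E17.5 arrays. The part of AV canal cells in the E10.5 samples was not tested.

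Genes of fetal growth control fell in 8 of 13 measured cases and rose in 1, with a median of -0.47. Igf2bp1, an RNA-binding protein of embryonic cells, fell from a median log2 intensity of 12.56 (12.41 to 12.88) at E10.5 to 9.89 (9.62 to 10.1) at E17.5, a difference of -2.7 ± 0.1 (adjusted p = 1.4e-09). Its relative Igf2bp3 fell by 0.68 (SE 0.055) at its brightest probe (adjusted p = 1.19e-06), and of 3 dimmer probes above background on all arrays 1 fell and 2 did not pass. Lin28b, which blocks maturation of let-7 microRNAs, and Hmga2, a let-7 target, were above background on all E10.5 arrays and on no E17.5 array, at least 1.77-fold and 1.92-fold lower (adjusted p = 6.44e-08 and 1.39e-08). Trim71, another let-7 target and an RNA-binding protein of stem cells, lies outside the list and fell from 9.49 to 9.998 (median 9.69) to background, at least 8.44-fold (adjusted p = 2.13e-11). Dlk1, an imprinted gene, rose by 2.5 ± 0.44 (adjusted p = 0.000859).

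Of 30 measured growth factors, receptors and antagonists, 7 rose and 12 fell. Fgf12, an intracellular FGF homologue that modulates sodium channels, rose from a median log2 intensity of 6.83 (6.53 to 6.96) at E10.5 to 10.83 (10.43 to 10.88) at E17.5, by 3.96 ± 0.1 (adjusted p = 4.35e-11), with arrays of each stage within 0.5 of each other. Among secreted factors, Tgfb3 rose by 1.66 ± 0.15 (adjusted p = 2.86e-06) while Tgfb2 fell by 0.94 (SE 0.18, adjusted p = 0.0017), lost against slide 2 of E10.5 (adjusted p = 0.0566) and not seen at a second probe (0.10, adjusted p = 0.524). Wnt2, a Wnt ligand of the early inflow tract, fell from a median log2 intensity of 10.001 (9.72 to 10.62) at E10.5 to 6.93 (6.23 to 8.4) at E17.5, a difference of -3.01 ± 0.3 (adjusted p = 7.12e-06). Fgf10, a growth factor of cardiac progenitors, fell to background and was at least 3.15-fold lower (adjusted p = 1.87e-06). The receptor gene Notch1, active in endothelium and trabeculae, rose by 2.5 ± 0.47 (adjusted p = 0.00135) and the endothelial markers given below rose as well, whose part was not tested.

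Of 13 measured hormone and autonomic receptors and hormone-processing enzymes, 5 rose and none fell. Chrm2, the muscarinic receptor through which the vagus slows the heart, rose from a median log2 intensity of 6.05 (5.9 to 6.84) at E10.5 to 7.82 (6.49 to 9.9) at E17.5, by 1.79 ± 0.42 (adjusted p = 0.00695). Only 1 of 6 E10.5 arrays was above background for Chrm2, the E17.5 arrays ranged widely, and the call was lost against slide 1 of E10.5 (adjusted p = 0.12). Thra, a thyroid hormone receptor, rose by 0.73 ± 0.14 (adjusted p = 0.00123), lost with median scaling (0.15, adjusted p = 0.43). Ednrb, an endothelin receptor, rose from a median log2 intensity of 10.8 (9.69 to 11.86) at E10.5 to 12.85 (12.34 to 13.99) at E17.5, by 2.25 ± 0.41 (adjusted p = 0.00104).

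Markers of other cell types were measured beside the muscle genes. The 9 measured defining cardiomyocyte markers were above background at both stages, with 1 rise, 4 falls and a median difference of -0.01. The sum of their linear signals lay between 159485 and 174263 on E10.5 arrays and between 150292 and 182023 on E17.5 arrays. With median scaling 8 of the 9 fell, with a median of -0.60. Replicate 1 at E17.5 had the lowest sum of the 12 arrays.

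Endothelial and endocardial markers rose in 13 of 14 cases, with a median of 2.66. The count was 13 without E10.5 replicates 5 and 6 and 14 without E17.5 replicates 1 and 4. Pecam1, an adhesion molecule of the vessel lining, was at 6.59 to 9.45 (median 8.59) at E10.5 and 11.3 to 13.15 (median 11.85) at E17.5, a difference of 3.77 ± 0.48 (adjusted p = 6.2e-05). Eng, the TGF-beta co-receptor endoglin, was at 6.37 to 7.71 (median 7.39) and 10.2 to 12.11 (median 10.73), a difference of 3.83 ± 0.34 (adjusted p = 2.8e-06). Vwf, von Willebrand factor, rose by 3.79 ± 0.41 (adjusted p = 1.43e-05), and Kdr, the VEGF receptor, was the marker that did not pass (0.18). The list's linear signals summed to between 2574 and 6582 on E10.5 arrays and between 21286 and 74982 on E17.5 arrays, lowest on E10.5 replicates 5 and 6 and highest on E17.5 replicate 1.

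Fibroblast and mesenchyme markers rose in 10 of 14 cases, with a median of 1.19 and no fall. Without E10.5 replicates 5 and 6, 9 rose, and without E17.5 replicates 1 and 4, 10 rose. Dpt, the matrix protein dermatopontin, rose from a median log2 intensity of 6.49 (6.32 to 6.81) at E10.5 to 10.16 (9.002 to 11.36) at E17.5, by 3.74 ± 0.3 (adjusted p = 1.33e-06). Col6a1, a collagen VI chain, rose from a median log2 intensity of 9.48 (9.001 to 9.77) at E10.5 to 12.62 (12.44 to 13.73) at E17.5, by 3.41 ± 0.21 (adjusted p = 1.28e-07). Dcn, decorin, rose by 3.38 ± 0.76 (adjusted p = 0.00478), and by 2.11 without E10.5 replicates 5 and 6, which lay low. The fibroblast factor Tcf21 was at background on all arrays. The list's summed signal ran from 12392 to 19526 on E10.5 arrays and from 30957 to 65906 on E17.5 arrays.

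Leukocyte markers rose in 4 of 8 cases, among them the complement gene C1qb, a macrophage product, by 3.33 ± 0.41 (adjusted p = 4.38e-05). The count of rises was also 4 without E10.5 replicates 5 and 6 and without E17.5 replicates 1 and 4. The defining marker Ptprc was at background on all arrays, and the summed signal ran from 618 to 3051 on E10.5 arrays and from 4471 to 19783 on E17.5 arrays. Of 7 smooth muscle and pericyte markers 4 rose and 1, Tagln, fell by 1.6 (SE 0.19, adjusted p = 3.29e-05), and Myh11 was at background on all arrays. With median scaling 2 of these 7 rose and 2 fell. Of 9 epicardial markers, Msln rose by 4.48 ± 0.35 (adjusted p = 9.44e-07) while Krt8, Krt18 and Tbx18 fell, and the summed signals of the stages overlapped (4924 to 11269 and 4866 to 16998). Against slide 2 of E10.5 the calls of Krt18 and Tbx18 were lost (adjusted p = 0.066 and 0.177). Of 5 neuron and Schwann cell markers none rose, and Th, which was at background on all arrays, was the 1 called lower. The part of these cells in the changes of single genes was not tested.

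Haemoglobin genes changed from embryonic to adult forms. Hbb-bh1, an embryonic beta-type globin, was at 6.54 to 14.01 (median 12.78) at E10.5, above background on 5 of 6 arrays, and at background on all arrays at E17.5, at least 32.6-fold lower (adjusted p = 0.00146). The adult globin Hbb-bs rose from a median log2 intensity of 9.24 (6.13 to 10.85) at E10.5 to 13.44 (11.54 to 14.91) at E17.5, by 4.63 ± 0.78 (adjusted p = 0.000585). Hbb-bh1 ranged over more than 7 log2 units at E10.5, and against slide 2 of E10.5 the adjusted p of Hbb-bh1 was 0.0539. Adult beta globins are near-identical copies, so their probes may share signal. Of 8 measured erythroid genes 1 rose and 3 fell, and their signals ran from a sum of 730 to 36419 on E10.5 arrays and from 3656 to 39593 on E17.5 arrays.

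**Figure D4:**
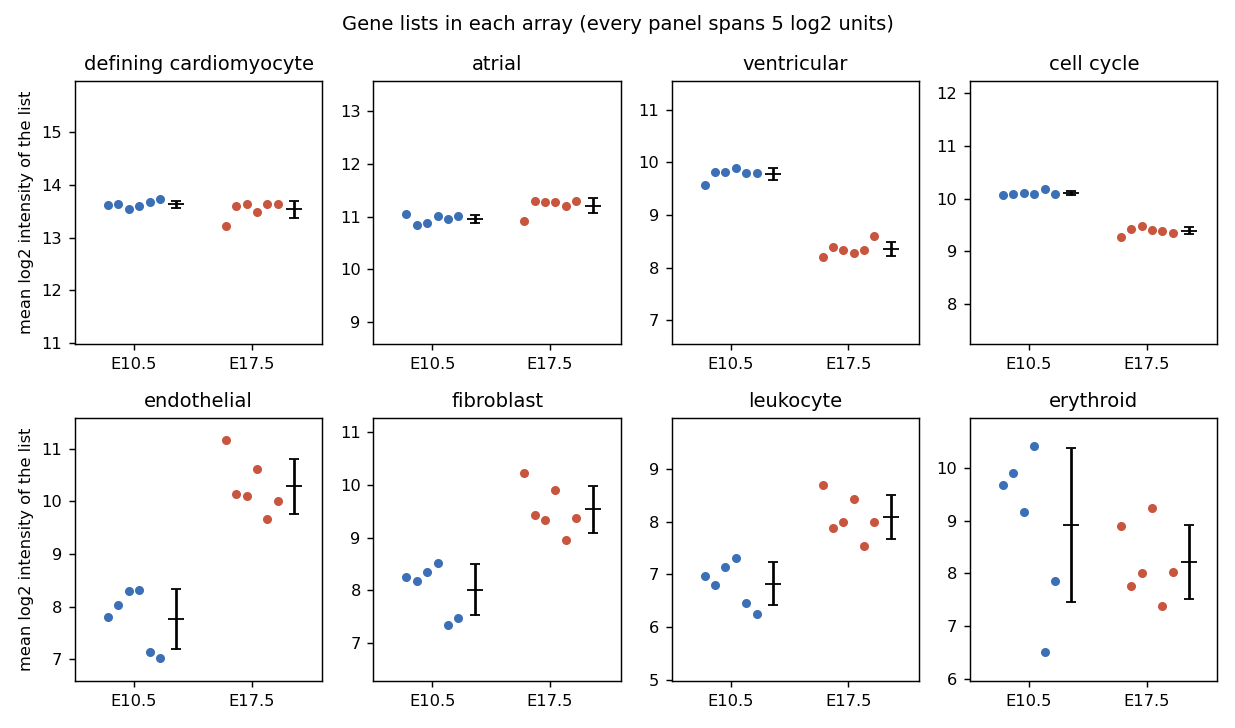
Mean normalized log2 intensity over the measured genes of 8 lists in each working array at E10.5 (blue) and E17.5 (red), in replicate order, with the mean and SD of 6 arrays in black; each panel spans the same range. The endothelial, fibroblast and leukocyte lists were higher on every E17.5 array and lowest on E10.5 replicates 5 and 6, the ventricular and cell cycle lists were lower on every E17.5 array, and the cardiomyocyte and erythroid lists overlapped, with the atrial list depending on the scaling.

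Immediate early and heat shock genes, which respond to dissociation of tissue, did not move one way. Of 11 measured, Zfp36, Junb and Ier2 rose and Fos and Fosb fell, the last 2 with differences of -1.32 ± 0.21 and -1.37 ± 0.33 (adjusted p = 0.00036 and 0.00735), the call of Fosb being lost against slide 2 of E10.5 (adjusted p = 0.14). The calls of Zfp36 and Junb were lost with median scaling (adjusted p = 0.0544 and 0.0506). The list's mean log2 intensity was 9.12 and 9.25 on E17.5 replicates 1 and 4, which also had the highest endothelial, fibroblast and leukocyte levels, and between 8.69 and 8.78 on the other 4 E17.5 arrays. The part of those cells in the list's change was not tested.

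Several of the largest changes lay outside these lists. Col2a1, a collagen of cartilage also made in embryonic valve tissue, was above background on all E10.5 arrays at 11.71 to 12.11 (median 11.95) and on no E17.5 array, at least 39.2-fold lower (adjusted p = 9.43e-14). Tnxb, the matrix protein tenascin X, went from background on all E10.5 arrays to 10.08 to 12.71 (median 11.19), at least 27.5-fold higher (adjusted p = 3.21e-07). Mgp, matrix Gla protein, an inhibitor of calcification, rose from a median log2 intensity of 6.83 (6.37 to 6.99) at E10.5 to 11.39 (11.2 to 12.01) at E17.5, by 4.75 ± 0.15 (adjusted p = 3.56e-10). Msc, a helix-loop-helix repressor of muscle genes, was at background at E10.5 and reached 10.15 to 12.17 (median 10.8), at least 20.2-fold higher (adjusted p = 5.68e-08). Ptgds, which makes prostaglandin D2, rose from a median log2 intensity of 6.54 (6.36 to 6.69) at E10.5 to 11.12 (10.65 to 11.32) at E17.5, by 4.51 ± 0.1 (adjusted p = 1.1e-11). Of the falls, Cxcl12, a chemokine of coronary vessel growth, fell from a median log2 intensity of 11.47 (11.14 to 11.78) at E10.5 to 8.47 (7.23 to 8.7) at E17.5, a difference of -3.24 ± 0.23 (adjusted p = 3.86e-07). The neuronal genes Tagln3 and Ap3b2 fell, with differences of -3.35 ± 0.11 and -3.16 ± 0.13 (adjusted p = 8.25e-10 and 4.28e-09). A Mcm6 probe, for a subunit of the replication helicase, was at least 8.43-fold lower, while the brightest Mcm6 probe fell by 0.85, so the size of that fall depends on the probe. The first of these probes was at 7.68 and 7.62 on E10.5 replicates 5 and 6 and at 10.09 to 11.15 on the other E10.5 arrays.

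Whether the change with stage differed between working and AV cells was tested as the working difference minus the AV difference over all 24 arrays. This was past the threshold for 4366 probes (9.36%) and for 14.7% of named genes, with 7.82% of genes (4.59% of probes) changing more positively in working cells and 6.84% (4.77%) more negatively. Of 31 sarcomere genes, 23 changed more positively in working cells and 1 more negatively. In AV cells 25 of the 31 fell and 2 rose between canal and node, with a median of -1.60. Over all named genes 20.7% fell and 18.6% rose in AV cells. All 9 measured cardiomyocyte markers changed more positively in working cells, and all 9 fell in AV cells, with a median of -2.27. The reporter lines differ between the tissues, so line and tissue cannot be told apart. Arrays above background were counted for working cells only. An AV difference that starts or ends near background is therefore given without that limit, and its size is uncertain.

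Of the genes above, Myh8 rose by 7.08 in working and by 1.51 in AV cells, a difference of 5.57 ± 0.62 (adjusted p = 1.07e-06). Ckm rose by 6.52 and 2.6, a difference of 3.91 ± 0.56 (adjusted p = 3.1e-05). Nppb differed by 0.38 and -3.8, a difference of 4.18 ± 0.37 (adjusted p = 2.94e-08). Tnni1 had differences of -1.06 and -3.53, so its lower level at E17.5 was shared but larger in AV cells, by 2.47 ± 0.49 (adjusted p = 0.00127). Myl2 went further down in working cells, at -5.4 against -2.11, a difference of -3.29 ± 0.53 (adjusted p = 0.00013). In AV cells the median difference was -2.27 for the defining cardiomyocyte markers and 2.61 for fibroblast markers. The part of a changed share of muscle cells in these AV values was not tested.

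For some genes no difference between the tissues was past the threshold. Acta1 had differences of -3.02 and -3.9, which differed by 0.87 ± 0.56 (adjusted p = 0.471), and Kcne1 differences of -2.08 and -2.09. Of 32 cell cycle genes, 24 fell in AV cells and 23 in working cells, against 20.7% and 18.6% of all named genes. For 1 of the 32 the change differed between the tissues. A p that misses the threshold does not show that the tissues changed alike. The change did differ for Tbx3, the gene behind the AV reporter, which differed by -2.38 in working and -0.17 in AV cells, a difference of -2.21 ± 0.38 (adjusted p = 0.000254). So did that of Cacna1g, which rose by 0.88 and 3.25, a difference of -2.37 ± 0.35 (adjusted p = 5.5e-05). AV cells were sorted by the Tbx3 reporter at both stages, so the Tbx3 comparison cannot be told apart from the sort.

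The genes with the largest difference between the tissues were Upk3b, Krt7, Laptm5, Tm4sf5 and Myh8, all more positive in working cells, and Ltbp2, more negative. Upk3b, a uroplakin made by epicardium and other mesothelium, had a working difference of 1.06 and an AV difference of -5.88 (6.93 ± 0.81, adjusted p = 2e-06). Its working value was -0.03 without E10.5 replicates 5 and 6. Krt7, a keratin, had differences of 1.72 and -4.28 (5.999 ± 0.8, adjusted p = 1.35e-05), and Laptm5, a lysosomal protein of leukocytes, 3.38 and -2.5 (5.89 ± 0.88, adjusted p = 5.67e-05). Ltbp2, a matrix protein, differed by 0.91 in working and 6.04 in AV cells (-5.13 ± 0.43, adjusted p = 1.61e-08). Endothelial markers changed more positively in working cells for 10 of 14 genes and fibroblast markers more negatively for 7 of 14.

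**Figure D5:**
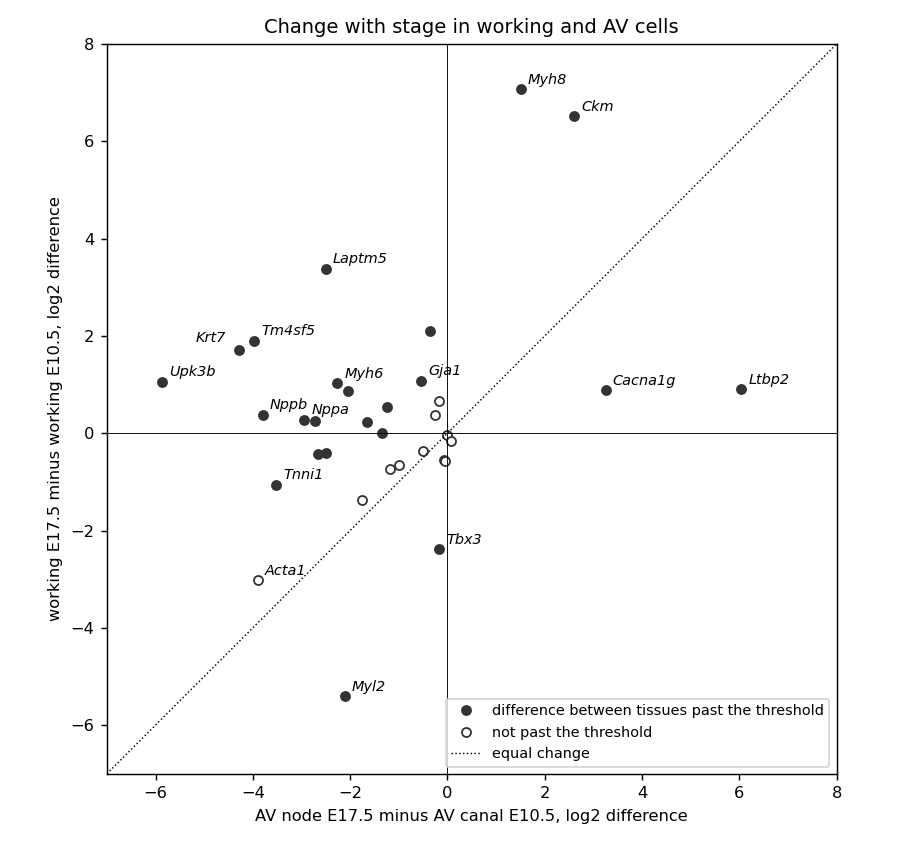
Log2 difference between the stages in working cells (vertical) and in AV cells (horizontal) for the textbook maturation genes and the 6 genes with the largest difference between tissues, from the fit of all 24 arrays; filled points passed the threshold for a difference between tissues, open points did not, and the dotted line marks equal change. Most muscle genes lie above the line, with Myh8 and Ckm highest, and Myl2, Tbx3, Cacna1g and Ltbp2 lie below it.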

How the data were processed

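The deposited linear probe intensities of 12 working myocardium arrays were used, 1 Illumina BeadChip per sample and 6 per stage. Per the labels, RNA was linearly amplified and biotin-labelled, and limma is listed in the submitters' processing notes with no step given. Background was corrected by normexp (offset 50), and values were log2-transformed and quantile-normalized between the 12 arrays. The authors' processed log2 values, whose method is not given in the sources used here, served as an alternative. Each of 46632 probes was tested with limma 3.58.1 in R 4.3.3 (lmFit, eBayes), adjusted by Benjamini-Hochberg, with a threshold of 0.05. The tissues were compared in a fit of 4 group means over 24 arrays. A probe was above background beyond 3 SDs of the lower side of its array's density peak.

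Of all probes 29976 had 1 gene name in the platform annotation, updated through RefSeq. A gene is represented by its probe with the highest mean. Of 412 genes in 25 lists, 365 were measured. Genes named were the 12 largest rises and falls without overlap, up to 3 in each direction per list, the textbook genes and 6 with the largest difference between tissues. Further list members, such as Cox7a1, Cox6a2, Cox5a and Kdr, were named after their values were seen. The lists and members were chosen with earlier results of these data known. The number of arrays limits the precision, and p-values measure the spread between these samples. The fitting steps were tested on simulated data. Alternatives covered background, scaling, probe filter, variance model, replicate block, slide and left-out arrays.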

Additional observations from a re-analysis of the deposited data

Results flagged for a closer look

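Among 160 groups of 6 arrays checked for an array far from the others, 17 held one, where chance gives about 8. The groups share arrays and some genes, so these counts cannot show an excess over chance. Of the 17 flagged groups, 10 concerned E17.5 replicate 1. Its log2 intensity was 10.83 for Myh6 against a mean of 12.64 over the other 5, 13.54 for Tnni3 against 14.34, 11.89 for Tnni1 against 12.87 and 10.59 for Cpt1b against 11.34, all low. Mgp was high there, at 12.01 against 11.36. Its mean log2 intensity was low for the sarcomere list (12.01 against 12.58), the cardiomyocyte markers (13.21 against 13.6), the atrial genes (10.92 against 11.27) and the fatty acid genes (9.416 against 9.805), and high for the fetal growth genes (11.27 against 11.07). The same array had the highest endothelial, fibroblast and leukocyte levels, and the part of those cells was not tested.

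E10.5 replicate 1 was high for Myom2 (6.834 against 6.525) and low for Gja1 (13.15 against 13.68) and the ventricular list (9.567 against 9.82). E10.5 replicate 5 was low for Ccnd1 (11.07 against 11.52) and high for the cell cycle list (10.19 against 10.09). E17.5 replicate 5 was low for Myl7 (14.53 against 14.86), and E17.5 replicate 4 was high for the hormone receptors (7.908 against 7.708).

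The change with stage differed between working and AV cells for 23 of 34 genes in the limma test of that difference, against 14.7% of all named genes. The 34 were the textbook genes and the 6 genes with the largest difference past the threshold, so these 6 passed by choice. Of the 28 textbook genes alone, 14 changed more positively in working cells and 3 more negatively. On the log2 scale the working minus AV value was 6.935 for Upk3b, 5.999 for Krt7, 5.886 for Laptm5, 5.885 for Tm4sf5 and 5.57 for Myh8. Among muscle genes it was 4.178 for Nppb, 3.915 for Ckm, 3.287 for Myh6, 3.225 for Nppa, 2.962 for Myl7 and 2.909 for Tnni3. It was 2.473 for Ckmt2, 2.471 for Tnni1, 2.239 for Ryr2, 2.098 for Actc1, 1.88 for Cpt1b, 1.783 for Fabp3, 1.623 for Gja1 and 1.352 for Atp2a2. The Nppa call was lost with the replicate block (adjusted p = 0.055), without E10.5 replicates 5 and 6 (0.0509) and in 5 fits without 1 AV array (up to 0.057). The Fabp3 call was lost with cyclic loess (adjusted p = 0.0592), without E10.5 replicates 5 and 6 (0.0654) and in 7 fits without 1 array (up to 0.0624). The working minus AV value was negative for Tbx3 (-2.207), Cacna1g (-2.37), Myl2 (-3.29) and Ltbp2 (-5.131). AV cells were sorted by the Tbx3 reporter and working cells by the Nppa reporter at both stages. The Tbx3 and Nppa values therefore cannot be told apart from the sort.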

How the results depend on the processing

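With median scaling 23875 probes were called, 4121 of them at least 2-fold against 2429, and 2785 differed between the tissues against 4366. List medians under it turned negative for calcium handling (-0.33), atrial genes (-0.050), immediate early genes (-0.29), fatty acid use (-0.31) and the sarcomere (-0.12). They were -0.84 for transcription factors, -0.60 for cardiomyocyte markers, -1.37 for the cell cycle, -1.73 for ventricular genes, -0.73 for conduction, -1.16 for fetal growth, -0.87 for glycolysis, -0.62 for mitochondria, -0.27 for growth factors, 0.047 for smooth muscle and -0.43 for textbook genes. Single genes that changed sign under it were Atp2a2 (-0.56), Cdkn1a (-0.054), Cpt1b (-0.39), E2f1 (-0.42), Fabp3 (-0.22), Hcn4 (0.095), Myl7 (-0.46), Nppa (-0.37), Nppb (-0.33) and Slc2a4 (-0.013). With the mean of all probes of a gene, medians were -0.22 for transcription factors, -0.64 for the cell cycle, -0.28 for conduction, 1.90 for endothelial markers, -0.26 for fetal growth and 0.073 for smooth muscle. With cyclic loess the ventricular median was -1.41. The authors' processed values gave 6010 changes of at least 2-fold. The percentage of calls that were rises, 44.1% as reported, was 51.9% with median scaling, 49.3% with cyclic loess, 48.0% with the authors' values, 45.4% with array weights, 41.1% with either slide of E10.5 alone (41.12% and 41.08%), 43.0% without E10.5 replicates 5 and 6 and 46.9% without E17.5 replicates 1 and 4, the last chosen after seeing the data. Leaving out 1 array gave 10235 to 11252 calls, 42.99% to 45.40% higher, 2320 to 2516 of at least 2-fold and 3960 to 4695 between the tissues. Atp2a2, near 0, was -0.024 against slide 2, -0.051 without E17.5 replicates 1 and 4, -0.045 with array weights and -0.025 to 0.061 with 1 array left out. Hcn4 was 0.019 against slide 1, and Upk3b -0.033 without E10.5 replicates 5 and 6. Between tissues Hcn4 was 0.022 with cyclic loess and 0.011 with median scaling, and Tbx2 ranged from -0.018 (without AV canal replicate 4) to 0.21 with 1 array left out. With a filter on dim probes 9467 of 16580 were called. The replicate numbers did not pair the working samples across the stages: same-numbered arrays had correlations of -0.32 to 0.33, and 1 of 6 matched its own number best. The same correlations between working and AV arrays of the same number were not computed. With the replicate number as a block 10413 probes were called, and 4385 differed between the tissues. Stage cannot be separated from hybridisation, probes near background hold only bounds, and the cause of these shifts was not tested.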

Other observations

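Some of the largest changes in working cells involved genes of no list. Thbs2, the matrix protein thrombospondin 2, was at 6.55 to 7.44 (median 6.76) at E10.5 and 10.6 to 12.56 (median 11.19) at E17.5 in log2 intensity, a difference of 4.53 ± 0.29 (adjusted p = 1.84e-07). Fcgrt, the receptor that recycles antibodies and albumin, was at 7.07 to 9.002 (median 8.28) and 12.32 to 13.46 (median 12.54), a difference of 4.5 ± 0.34 (adjusted p = 7.18e-07). Ccdc3, which encodes a secreted protein, rose by 5.1 ± 0.33 (adjusted p = 2.01e-07), with 4 of 6 E10.5 arrays above background. A lack of overlap between the stages was a condition for naming these 3 genes. Among the falls, Prtg, an adhesion protein of the early embryo, fell from a median log2 intensity of 9.66 (9.38 to 9.97) at E10.5 to 6.56 (6.44 to 6.9) at E17.5, a difference of -3.08 ± 0.12 (adjusted p = 2.92e-09), with 2 of 6 E17.5 arrays above background. Rec114, known from meiotic recombination, fell by 3.27 (SE 0.083, adjusted p = 4.49e-11).

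Lactate dehydrogenase B (Ldhb), the form of oxidative muscle, rose by 0.87 ± 0.14 (adjusted p = 0.000351), a call lost with median scaling (0.17, adjusted p = 0.422) and not seen at a second probe (-0.10, adjusted p = 0.816). Slc25a4, which carries ATP out of mitochondria, fell by 1.07 (SE 0.12, adjusted p = 2.51e-05), and Etfa, which passes electrons from fatty acid oxidation to the respiratory chain, fell by 1.06 (SE 0.19, adjusted p = 0.00102).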
